A study of Mus musculus with 10 samples.

Results

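Amino acid and peptide transporters are the carriers that move amino acids, dipeptides and tripeptides across cell membranes, and in the kidney most of them work in the epithelium of the proximal tubule. They were chosen here by gene symbol, as every gene of the deposited table named Slc1a, Slc3a, Slc6a, Slc7a, Slc15a, Slc36a, Slc38a or Slc43a with its member number, leaving out Slc6a8, Slc38a3 and Slc38a9. The rule found 40 of the 13837 genes in the table.

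Whole kidneys came from 5 Rragc +/+ mice and 5 RagC S74N KI/+ mice of the C57BL/6 background, all 3 months old and fed standard chow, with 1 library per mouse. RagC is a subunit of the Rag GTPases, which recruit the kinase complex mTORC1 to the lysosome when amino acids are plentiful, and the knock-in allele makes this signal partly insensitive to their absence. The allele was made by CRISPR editing of the germline, so it was present in every cell, under the gene's own promoter, and always with 1 normal copy. Rragc itself was measured at 285 ± 42.3 (SD, n = 5) normalized counts in +/+ and 216 ± 23.6 (SD, n = 5) in KI/+ kidneys (limma adjusted p = 0.0678, passing with DESeq2 alone at an adjusted p of 0.0312), a readout that does not distinguish the alleles. Y-linked transcripts were detected in all 10 libraries.

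The comparison asks which amino acid carriers differ in abundance of mRNA when the amino acid signal to mTORC1 is mildly raised in the whole body. A filtered amino acid is first taken up from the urine across the apical brush border, and then leaves the cell into the blood across the basolateral membrane. Several carriers need a second chain to reach the membrane: light chains of the Slc7a family pair with the heavy chain Slc3a1 at the apical side or Slc3a2 at the basolateral side, and the apical carriers Slc6a18 and Slc6a19 need collectrin (Cltrn). A further group sits in the lysosome, where Rag GTPases read the supply of amino acids. The place given to each carrier below comes from general knowledge of the kidney and was not measured in these mice.

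Values are normalized counts, which are reads per gene divided by a size factor for the library. The libraries read only the 3′ end of transcripts, so long transcripts do not collect more reads than short ones. Differences were tested with limma on log2(value + 1), and an adjusted p under 0.05, by the Benjamini-Hochberg method over all 13197 genes tested, counted as changed. The added 1 shrinks the fold changes of rarely read genes. Of the 40 transporter genes, 38 passed the filter on low values, and Slc7a12 and Slc38a4 did not. The libraries held 6501552 to 7856363 reads on genes in +/+ and 6872310 to 7996087 in KI/+ mice.

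Of the 38 transporters tested, 8 (21.1%) passed the threshold, beside 3.69% of all genes tested. Of these, 6 were lower in KI/+ kidneys, namely Slc6a19, Slc7a9, Slc3a2, Slc7a7, Slc7a8 and Slc38a1, which is 15.8% of the transporters beside 2.02% of all genes. The other two, Slc6a18 and Slc1a4, were higher, which is 5.26% beside 1.67%. In 8 transporters (21.1%) the genotypes shared no range of values, as they did in 5.0% of all genes. The other 30 did not pass. The log2 fold changes of the 38 had a median of -0.0084, beside 0.00046 over all genes tested, with 21 values below 0 and 17 above. These shares describe the list and were not tested as a set.

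**Figure D1:**
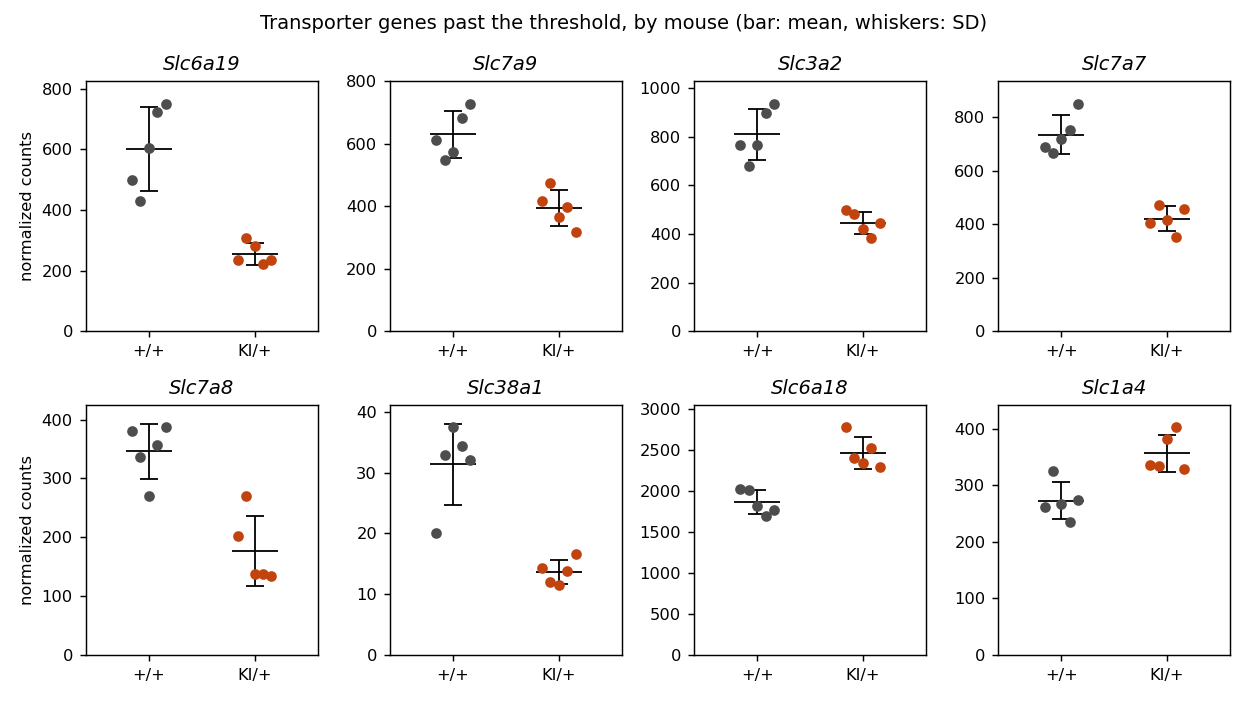
Normalized counts (vertical axis, linear, from 0) of the 8 transporter genes past the threshold in each of 5 +/+ mice (grey) and 5 KI/+ mice (orange), with the mean as a bar and the SD as whiskers. Points of the genotypes are apart in every panel but Slc7a8, where KI/+ replicate 2 at 270.4 lies just above +/+ replicate 3 at 269.9.

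At the apical membrane, 2 of 9 carriers tested were lower, 1 was higher and 6 did not pass. Their median log2 fold change was 0.09. The largest fall was in Slc6a19 (B0AT1), the main brush border carrier for neutral amino acids, whose loss causes Hartnup disorder. Its counts were 500.2, 428.7, 604.4, 724.6 and 750.6 in the +/+ mice and 235.2, 307.5, 280.6, 221.4 and 234.5 in the KI/+ mice. Every KI/+ value lay below every +/+ value, and the KI/+ mice were also closer to each other. The mean was 602 ± 139 (SD, n = 5) in +/+ and 256 ± 36.6 (SD, n = 5) in KI/+ kidneys, a log2 fold change of -1.21 (SE 0.14, limma adjusted p = 4.5e-05).

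Slc6a18 (B0AT3), a close relative of Slc6a19 that carries glycine and other neutral amino acids in the late proximal tubule, moved the other way. Its counts were 2027.4, 2019.7, 1816.7, 1698.0 and 1774.5 in +/+ mice and 2777.3, 2404.6, 2343.5, 2525.4 and 2289.6 in KI/+ mice. All KI/+ mice were above all +/+ mice, by 0.40 on the log2 scale (SE 0.08, limma adjusted p = 0.0070). Without the variance trend of limma this call was lost (adjusted p = 0.0542). For every 100 reads of Slc6a18 there were 21.2 to 42.7 reads of Slc6a19 in +/+ mice and 8.47 to 12.8 in KI/+ mice, so the pair separated the genotypes within each library, with no dependence on the size factors. Their partner Cltrn did not pass the test, at 9574 ± 891 (SD, n = 5) in +/+ and 8785 ± 1258 (SD, n = 5) in KI/+ kidneys (limma adjusted p = 0.606).

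The cystine and dibasic amino acid carrier of the brush border is made of the light chain Slc7a9 and the heavy chain Slc3a1, both genes of cystinuria. Slc7a9 was measured at 613.4, 548.7, 574.9, 683.9 and 728.2 in +/+ mice and at 416.4, 475.7, 364.7, 398.3 and 318.2 in KI/+ mice. The groups were apart, with a log2 fold change of -0.68 (SE 0.11, limma adjusted p = 0.0013). Slc3a1 was measured at 2052, 2220, 1531, 1873 and 1905 in +/+ mice and at 1904, 2406, 2091, 2158 and 1659 in KI/+ mice. These values overlapped, and the interval of the log2 fold change ran from -0.14 to 0.32 (95%), which does not reach the fall of the light chain.

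Slc7a13, the other light chain known to pair with Slc3a1, in the last segment of the proximal tubule, had the most reads of all the transporters in the table. It was at 7903, 9510, 7621, 8090 and 8211 in +/+ mice and at 9882, 10163, 9060, 10545 and 5404 in KI/+ mice. Most KI/+ mice were at the upper end and KI/+ replicate 5 was below every other mouse, and the log2 fold change of 0.09 did not pass (adjusted p = 0.837). Set against the same heavy chain, Slc7a9 ran at 24.7 to 38.2 reads per 100 Slc3a1 reads in +/+ and 17.4 to 21.9 in KI/+ mice, while Slc7a13 ran at 385 to 498 and 326 to 519. The first ratio separated the genotypes and the second did not.

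**Figure D2:**
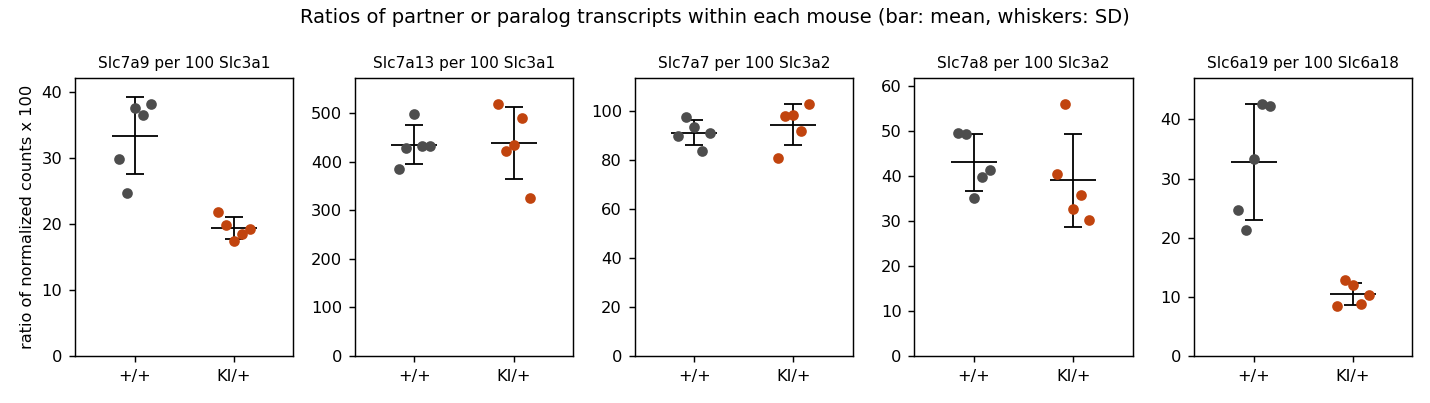
Ratios of normalized counts between partner or related transcripts in the same library, times 100 (vertical axis, from 0), in 5 +/+ mice (grey) and 5 KI/+ mice (orange), with the mean as a bar and the SD as whiskers. Slc7a9 to Slc3a1 and Slc6a19 to Slc6a18 were lower in every KI/+ mouse than in any +/+ mouse, while the ratios of Slc7a13 to Slc3a1 and of Slc7a7 and Slc7a8 to Slc3a2 overlapped.

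The remaining apical carriers did not pass. Slc6a20a, one of a pair of mouse genes for proline and other imino acids, was at 65.1 ± 9.69 (SD, n = 5) in +/+ and 97.6 ± 26.8 (SD, n = 5) in KI/+ kidneys (log2 fold change 0.55, limma adjusted p = 0.119), and passed only without KI/+ replicate 5 (adjusted p = 0.0294). Its near-identical copy Slc6a20b, with 1314 and 1438 normalized counts, differed by 0.13 on the log2 scale. Reads that match both genes cannot be assigned to either. Slc1a1, the carrier of glutamate and aspartate, was at 1019 and 1107 (log2 fold change 0.12, adjusted p = 0.522). Slc15a2 (PepT2), the kidney's high-affinity carrier of dipeptides and tripeptides, was at 425 and 374 (log2 fold change -0.19, adjusted p = 0.633). Slc15a1 and Slc36a2 were not analysed here.

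At the basolateral membrane, 3 of 10 carriers tested were lower, 0 were higher and 7 did not pass. Their median log2 fold change was -0.07. The 3 were the heavy chain Slc3a2 (4F2hc) and the light chains Slc7a7 and Slc7a8, which depend on it to reach the membrane. Slc3a2 was at 767.7, 682.1, 767.7, 897.2 and 936.4 in +/+ mice and at 499.9, 482.2, 422.5, 384.5 and 443.7 in KI/+ mice. The lowest +/+ mouse was well above the highest KI/+ mouse, and the log2 fold change was -0.85 (SE 0.10, limma adjusted p = 4.7e-05).

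Slc7a7 (y+LAT1) lets dibasic amino acids out of the cell in exchange for neutral ones, and its loss causes lysinuric protein intolerance. It was at 688.3, 665.2, 717.8, 750.4 and 849.9 in +/+ mice and at 404.1, 472.0, 415.1, 352.9 and 456.4 in KI/+ mice. The groups did not overlap (log2 fold change -0.81, SE 0.10, limma adjusted p = 5.1e-05). Slc7a8 (LAT2), an exchanger of neutral amino acids, was at 380.7, 337.1, 269.9, 357.0 and 386.5 in +/+ mice and at 202.0, 270.4, 137.7, 137.4 and 134.3 in KI/+ mice. The KI/+ replicates 3, 4 and 5 sat together far below the +/+ mice, and KI/+ replicate 2 was level with the lowest of them (log2 fold change -1.02, SE 0.17, limma adjusted p = 0.0016).

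The ratios of these light chains to their heavy chain overlapped between the genotypes. Per 100 reads of Slc3a2, Slc7a7 was at 83.6 to 97.5 in +/+ and 80.8 to 103 in KI/+ mice, and Slc7a8 at 35.2 to 49.6 and 30.3 to 56.1. Slc7a6 (y+LAT2), a further light chain of Slc3a2 with few reads, was at 15.0 ± 5.95 (SD, n = 5) and 16.3 ± 7.58 (SD, n = 5), and its interval from -0.63 to 0.84 on the log2 scale was too wide to place it. Slc7a5 was not analysed here.

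The other basolateral carriers tested did not pass. Slc43a2 (LAT4), a uniporter for branched-chain amino acids, was at 754 ± 32.6 (SD, n = 5) in +/+ and 678 ± 77.2 (SD, n = 5) in KI/+ kidneys (log2 fold change -0.16, limma adjusted p = 0.414). Slc38a2 (SNAT2), which takes small neutral amino acids into the cell with sodium, had a log2 fold change of -0.13. The cationic amino acid carriers Slc7a1 and Slc7a2 were at -0.01 and 0.08, the taurine carrier Slc6a6 at 0.02 and the GABA carrier Slc6a13 at 0.08. None of these 4 values was larger than its SE. Slc6a12 was not analysed here.

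**Figure D3:**
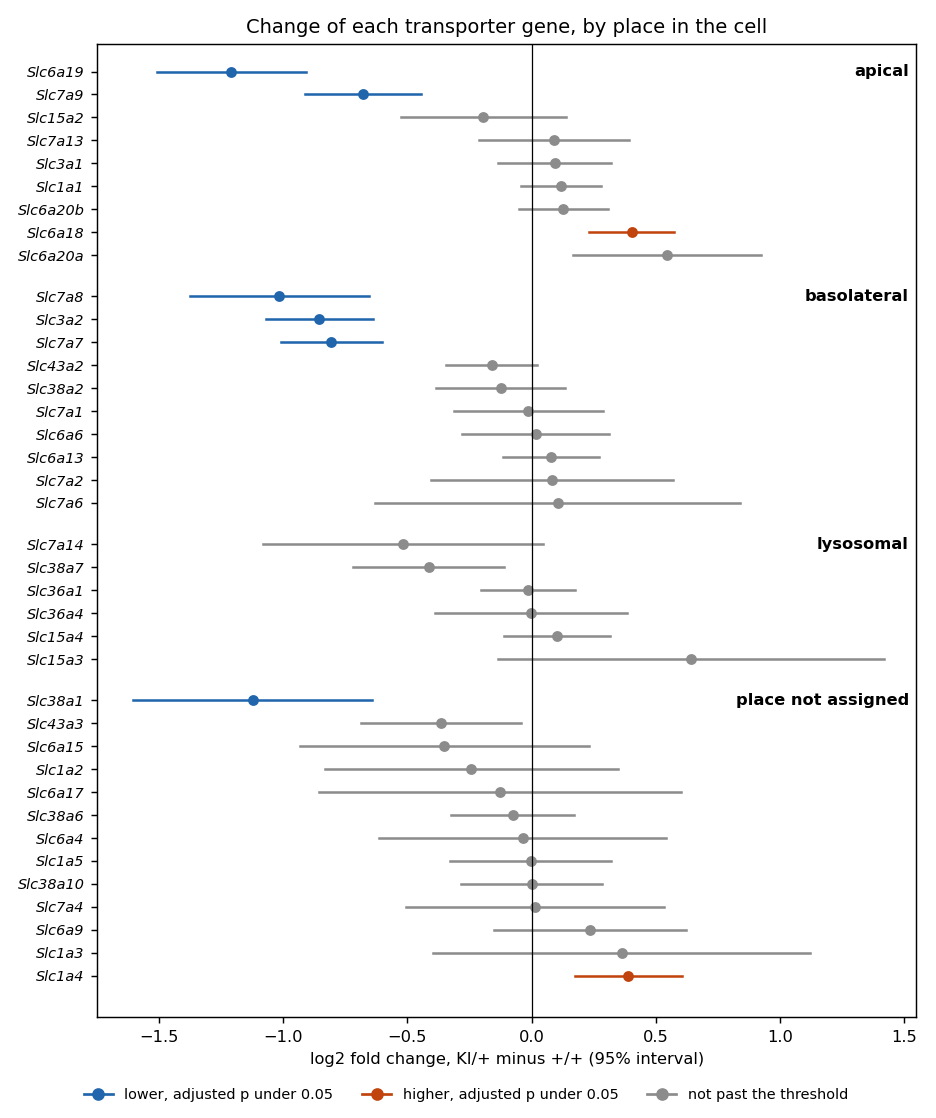
Log2 fold change of KI/+ against +/+ (horizontal axis) of the 38 transporter genes tested, grouped by their known place in the cell, as points with 95% intervals from limma. Blue genes were lower and orange genes higher at an adjusted p under 0.05, and grey genes did not pass; the lower genes reach from -0.68 for Slc7a9 to -1.21 for Slc6a19.

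Slc16a10 (TAT1), a uniporter for aromatic amino acids, also sits in the basolateral membrane but belongs to another gene family. It was at 164.3, 169.0, 167.8, 190.8 and 167.6 in +/+ mice and at 111.0, 125.4, 105.1, 100.8 and 103.1 in KI/+ mice. The groups were apart and narrow (log2 fold change -0.65, SE 0.11, limma adjusted p = 0.0013). Among 12 tested amino acid carriers outside the 8 families, most of them mitochondrial or lysosomal, it was the 1 that passed.

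In the lysosomal membrane, 0 of 6 carriers tested passed with limma, edgeR or DESeq2, and the median log2 fold change was -0.0077. Slc38a7, a lysosomal exporter of glutamine and asparagine, was at 58.4, 54.2, 64.6, 72.9 and 66.2 in +/+ mice and at 48.4, 45.5, 50.4, 41.5 and 49.6 in KI/+ mice. Its groups did not overlap (exact permutation test, two-sided, p = 0.0079, the smallest that 5 against 5 mice allow), yet the log2 fold change of -0.41 did not pass over all genes (limma adjusted p = 0.144). It was the 1 lysosomal carrier with an unadjusted limma p under 0.05. Slc36a1 (PAT1), which exports small neutral amino acids from the lysosome, was at 345 ± 28.2 (SD, n = 5) and 341 ± 18.96 (SD, n = 5), with an interval from -0.20 to 0.18 on the log2 scale. Slc15a4, a lysosomal carrier of histidine and peptides, was at 132 and 142 (adjusted p = 0.706), and Slc36a4 at 30.0 in both genotypes. Slc15a3 and Slc7a14, with means under 21 normalized counts, had the widest intervals of the group, from -0.13 to 1.42 and from -1.08 to 0.04.

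Of the 13 tested carriers with no place assigned, 1 was lower and 1 was higher. Slc38a1 (SNAT1), which takes up glutamine with sodium, was low in every library, at 20.1, 32.9, 37.4, 34.3 and 32.0 in +/+ mice and 14.2, 12.1, 11.6, 13.8 and 16.5 in KI/+ mice. The lowest +/+ mouse, replicate 1, was still above all KI/+ mice (log2 fold change -1.12, SE 0.23, limma adjusted p = 0.0074). Slc1a4 (ASCT1), an exchanger of serine, alanine and threonine, was at 262.0, 325.5, 266.5, 234.8 and 274.4 in +/+ mice and 335.8, 334.5, 381.5, 402.3 and 328.9 in KI/+ mice. The groups were separated only by the gap between +/+ replicate 2 and the KI/+ mice, and the rise of 0.39 on the log2 scale (SE 0.10, limma adjusted p = 0.0424) was lost in 8 of 10 leave-one-out fits, with adjusted p values up to 0.137 over the alternatives.

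The 11 remaining carriers with no place assigned did not pass. Their log2 fold changes ran from -0.36 in Slc43a3 (limma adjusted p = 0.248) to 0.36 in Slc1a3, a glutamate carrier of few reads (limma adjusted p = 0.711). In Slc1a3, KI/+ replicate 5 was at 69.1, the other KI/+ mice at 10.5 to 30.7 and the +/+ mice at 16.0 to 26.1. Slc1a5 (ASCT2), which exchanges glutamine for other neutral amino acids, was at 161 ± 17.5 (SD, n = 5) in +/+ and 164 ± 44.5 (SD, n = 5) in KI/+ kidneys, with an interval from -0.33 to 0.32 on the log2 scale. Slc6a9 (GlyT1), a glycine carrier, was at 90.7 ± 14.4 (SD, n = 5) and 109.6 ± 29.6 (SD, n = 5), which is higher by 0.23 on the log2 scale without passing (limma adjusted p = 0.620). The spread was wider among KI/+ than +/+ mice for both genes.

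By family, Slc7a held 3 lower genes of 9 tested (Slc7a7, Slc7a8 and Slc7a9), Slc3a 1 of 2, Slc38a 1 of 5 and Slc6a 1 lower and 1 higher of 10. Slc1a held 1 higher of 5. In Slc15a with 3 tested, Slc36a with 2 and Slc43a with 2, 0 genes passed with limma, edgeR or DESeq2; among these 7 genes Slc43a3 alone had an unadjusted limma p under 0.05. The member with the most reads passed only in Slc6a (Slc6a18). In the other families that member was Slc1a1, Slc3a1, Slc7a13, Slc15a2, Slc36a1, Slc38a10 and Slc43a2, with log2 fold changes between -0.19 and 0.12. Slc38a10, whose role is little known, was at 794 and 795 normalized counts. Not every gene of these families is an amino acid carrier, since Slc6a4 moves serotonin and Slc43a3 purine bases.

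Some of these carriers are known targets of ATF4, the transcription factor that cells switch on when amino acids are short. Of 6 such carriers tested, Slc3a2 was lower, Slc1a4 was higher and Slc1a5, Slc6a9, Slc7a1 and Slc38a2 did not pass. Their median log2 fold change was -0.0085. Of 9 other genes of this response that were tested, among them Atf4 (1183 and 1240 normalized counts, adjusted p = 0.773), Asns, Psat1, Sesn2 and Ddit3, 0 passed with limma, edgeR or DESeq2, and 3 (Psat1, Phgdh and Sesn2) had an unadjusted limma p under 0.05.

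The 300 bases around the transcription start, from 250 before it to 50 after, were searched for 4 motifs in 28 of the 38 tested transporters, which is as many as had a RefSeq entry. The sequences are RefSeq's, on the build GRCm38.p6, which is not the build of the expression values. The promoters shown are the 2 of changed transporters that held the ATF4 and C/EBP motif TTGCATCA, on either strand, and that of Slc3a2, the heavy chain of the ATF4 group, which held none of the 4 motifs. Slc1a4 lies at chr11:20332664-20332963, Slc7a7 (the first of 5 listed starts) at chr14:54417895-54418194 and Slc3a2 at chr19:8713848-8714147, all on the minus strand, and capitals mark the motif.
Slc1a4: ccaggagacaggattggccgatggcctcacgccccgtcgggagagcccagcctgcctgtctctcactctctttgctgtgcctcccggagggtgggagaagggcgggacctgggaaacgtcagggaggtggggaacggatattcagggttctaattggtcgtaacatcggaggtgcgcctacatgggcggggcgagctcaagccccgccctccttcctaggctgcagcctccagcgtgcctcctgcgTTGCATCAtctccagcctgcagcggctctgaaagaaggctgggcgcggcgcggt
Slc7a7: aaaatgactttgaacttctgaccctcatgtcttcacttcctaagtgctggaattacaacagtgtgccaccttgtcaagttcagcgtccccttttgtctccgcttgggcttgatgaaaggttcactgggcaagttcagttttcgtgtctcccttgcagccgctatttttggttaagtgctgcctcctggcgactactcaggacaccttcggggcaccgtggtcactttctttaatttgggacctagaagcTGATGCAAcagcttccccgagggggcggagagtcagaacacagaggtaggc
Slc3a2: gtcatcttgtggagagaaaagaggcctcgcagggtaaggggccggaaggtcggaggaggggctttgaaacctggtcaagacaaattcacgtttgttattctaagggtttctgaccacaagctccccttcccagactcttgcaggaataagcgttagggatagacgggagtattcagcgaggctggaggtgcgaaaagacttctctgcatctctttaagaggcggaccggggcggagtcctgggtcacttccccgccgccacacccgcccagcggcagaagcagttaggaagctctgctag
In Slc1a4 the motif begins 4 bases before the listed start. In Slc7a7 it is read on the opposite strand, as TGATGCAA, and begins 1 base before the start. The motif was found in 0.895% of the 32851 mouse promoters of the same length. A transporter counted here if any of its listed starts matched, while the 0.895% is per promoter. The motif was found in 1 of 5 lower transporters, in the 1 higher transporter with an entry and in 0 of 22 that did not pass. The lower transporter was Slc7a7, matched at starts 1 and 2 of its 5 and not at starts 3 to 5. The E-box CACGTG, which the lysosomal factors TFEB and TFE3 can bind, was found in 7.15% of all promoters, in 0 of the 6 changed transporters with an entry, and in 3 of 22 others, namely Slc7a14, Slc36a1 and Slc38a7. The letters GTTAAT, part of the motif of the tubule factor HNF1, were found in 7.10% of all promoters, in 1 of 5 lower and 4 of 22 that did not pass, and AAAGTCCA, part of that of HNF4, in 1.25%, in 0 of 5 and 1 of 22. The GTTAAT match among lower transporters was at start 5 of Slc7a7 alone. A match describes the letters of the promoter and does not show that a factor binds there.

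The brush border also carries the peptidases that release amino acids from filtered peptides. Of 16 tested genes on a list of these peptidases, their partners and related enzymes, 1 was lower and 1 higher. Dpep1, which cuts dipeptides, was at 973 ± 69.9 (SD, n = 5) in +/+ and 710 ± 87.1 (SD, n = 5) in KI/+ kidneys (log2 fold change -0.46, limma adjusted p = 0.0068), and without the variance trend of limma its adjusted p was 0.0505. Acy3, an aminoacylase, was at 6844 ± 671 (SD, n = 5) and 8846 ± 944 (SD, n = 5) (log2 fold change 0.37, limma adjusted p = 0.0339), with overlap between the genotypes, and passed in 3 of 10 leave-one-out fits. Anpep, Enpep, Mme, Ggt1 and Mep1a, peptidases and the glutathione-splitting enzyme of the same membrane, did not pass with limma. Acy1, at 463 and 634, passed with DESeq2 (adjusted p = 0.0255) but not with limma (adjusted p = 0.0699). Among those that did not pass with limma, Anpep, Enpep, Mme, Acy1 and Slc9a3r1 were higher at an unadjusted limma p under 0.05. Xpnpep2 was lower at that level.

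Some marker genes of the tubule also differed between the genotypes. Of 4 markers of the first segments of the proximal tubule (S1 and S2), 3 were lower: the glucose carrier Slc5a2 (1380 and 731 normalized counts, log2 fold change -0.93, limma adjusted p = 4.6e-05), the lactate carrier Slc5a12 (438 and 219, -0.95, adjusted p = 0.0018) and Gatm, an enzyme of creatine synthesis (973 and 602, -0.74, adjusted p = 0.0173). The genotypes overlapped in Gatm, which passed in 9 of 10 leave-one-out fits and had an adjusted p of up to 0.109 over the alternatives, so that the count was 2 of 4 where it was lost. The fourth, Slc22a8, was at 2330 and 2532 and did not pass (adjusted p = 0.788). The summed level of the 4 ran from 4602 to 5521 in +/+ and from 3257 to 4857 in KI/+ mice, and none of them was at 0 in any mouse.

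The 4 markers of the last segment (S3) did not pass, and their sum ran from 6230 to 8040 in +/+ and from 5501 to 9166 in KI/+ mice. Atp11a made up most of this sum, with means of 5523 and 6369. Slc22a30 and Cyp7b1, also on this list, are listed for a sex bias in kidney too. Of 6 markers of the whole proximal tubule, Slc22a6, a carrier of organic anions, was higher (log2 fold change 0.52, limma adjusted p = 0.0010), and Lrp2, Cubn, Slc34a1, Hnf4a and Slc4a4 did not pass, with a sum of 44481 to 48907 in +/+ and 47953 to 55673 in KI/+ mice. In whole tissue, fewer cells of a type and less RNA per cell cannot be told apart. The part of the make-up of the tubule in the values of the carriers was not tested.

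**Figure D4:**
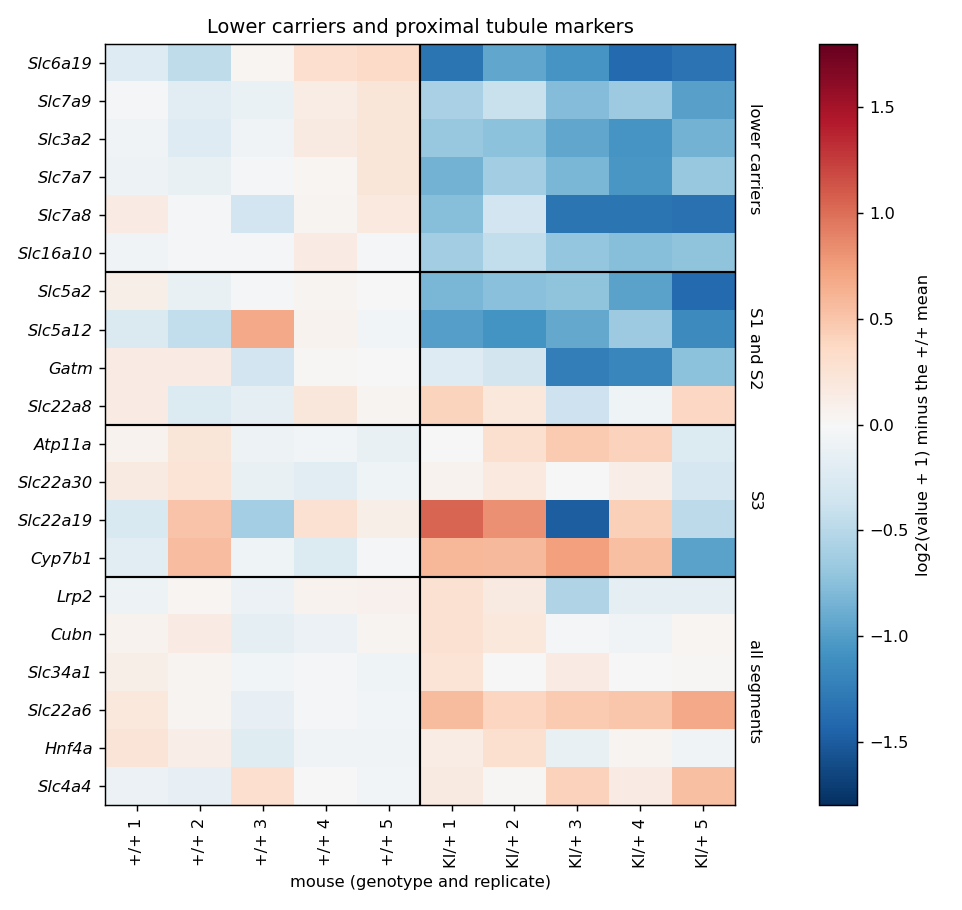
Heat map of log2(value + 1) minus the +/+ mean, for 5 lower transporters with Slc16a10 and for markers of the proximal tubule by segment (rows), in 5 +/+ and 5 KI/+ mice (columns), blue being lower and red higher. The lower carriers and Slc5a2, Slc5a12 and Gatm are blue in all 5 KI/+ mice, while Slc22a8, the S3 markers and the markers of all segments each have KI/+ mice at or above the +/+ mean.

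Markers of other parts of the nephron differed too. Of the thick ascending limb 3 of 4 were lower, namely Umod, Egf and Kcnj1. The sum of the 4 was 29282 to 38679 in +/+ and 12436 to 21444 in KI/+ mice. Umod made up most of this sum, with means of 22917 and 11569. Slc12a1 overlapped between the genotypes and did not pass (means 6354 and 5540, limma adjusted p = 0.438). Of the distal convoluted tubule 2 of 3 were lower, Slc12a3 and Trpm6, and Calb1 did not pass (limma adjusted p = 0.852). In the thick ascending limb Kcnj1 had an adjusted p of up to 0.0904 over the alternatives. Of 6 collecting duct markers, Slc4a1 was lower (log2 fold change -0.59, limma adjusted p = 0.0137). Aqp2, Aqp3 and Scnn1g had log2 fold changes of 0.54, 0.48 and 0.66 and passed with DESeq2 (adjusted p = 0.0287, 0.0239 and 0.0443) but not with limma (adjusted p = 0.0887, 0.0510 and 0.0502), and in Aqp3 and Scnn1g all KI/+ mice were above all +/+ mice. For other cell types, 0 of 4 podocyte, 0 of 4 endothelial and 0 of 5 leukocyte markers passed with limma, edgeR or DESeq2. Beside this, 3.69% of all genes tested passed with limma. The unadjusted limma p was under 0.05 for 1, 1 and 2 of them. Leukocyte markers summed to 1864 to 2814 in +/+ and 2175 to 3187 in KI/+ mice. KI/+ replicate 5 was the lowest of all mice for Slc7a13 and the sums of the S3, podocyte and thick ascending limb markers. The last of these was 12436 in this mouse and 19822 to 21444 in the other KI/+ mice. This mouse was the highest of all for the collecting duct, leukocyte and Y-linked sums. Without it the same 8 transporters passed, and Slc6a20a with them.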

How the data were processed

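Kidney RNA of 5 +/+ and 5 KI/+ mice was analysed, with genotypes from the labels. The authors made QuantSeq 3′ libraries, aligned reads with TopHat2 2.0.10 to GRCm39 with up to 3 mismatches and 20 hits per read, counted them by strand with HTSeq 0.6.1 on a GENCODE annotation, and deposited a normalized signal, reads divided by the library's size factor. All values were whole reads after multiplying back (tolerance 0.01 reads), and 0 columns were left unmatched.

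The log2(value + 1) of genes with at least 10 normalized counts in at least 5 mice was tested with limma 3.58.1 in R 4.3.3 (trend, two-sided, threshold 0.05), without covariates. edgeR 4.0.16 and DESeq2 1.42.0 were run on the recovered reads as alternatives only. The limma step was tested on simulated data. Intervals are from limma. Limma p-values set the difference between genotypes against the spread between mice, which limma moderates over all genes.

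The members and lists were chosen with earlier results of these data known. Named are every transporter past the threshold or without overlap, every apical or basolateral carrier in the table, the member of each family with the most reads, and, of related lists, the genes past the threshold with Cltrn and Slc16a10 (1 more such gene is not reported here); further genes were named after their values were seen. Figures used matplotlib 3.10.9.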

Additional observations from a re-analysis of the deposited data

Results flagged for a closer look

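Slc7a13 in KI/+ kidneys was the 1 value that stood apart within its group, among 42 sets of 5 mice checked, where chance marks about 5% of such sets. KI/+ replicate 5 was at 5404 normalized counts and the other KI/+ mice at 9060 to 10545, a gap of 0.711 of the range beside a critical value of 0.71. Without this mouse the log2 fold change of Slc7a13 was 0.26 in place of 0.09, and it did not pass in any of the 22 alternatives (adjusted p 0.129 to 0.964). The cause was not tested.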

How the results depend on the processing

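The number of transporters past the threshold was 8 and ran from 6 to 9 over 22 alternatives. The 6 lower calls were kept in each alternative that tested the gene; Slc38a1 was left out by the filter at a mean of 50. Slc1a4 was lost in 10 alternatives, among them quantile normalization (adjusted p = 0.0540), and kept, of the fits without a mouse, only without +/+ replicate 2 or KI/+ replicate 5. Slc6a18 was lost without the trend. With a term for the run of library codes (codes ending in 38 to 40 against 53 to 66), and within codes 53 to 66 alone (3 +/+ and 4 KI/+ mice), the same 8 passed. No alternative moved the median log2 fold change of all genes outside -0.0052 to 0.0065.

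Over all genes, 487 calls became 291 without the trend, 832 with the term for library codes, and 295 to 466 on leaving out a mouse (295 without +/+ replicate 5, 310 without +/+ replicate 4). The 3 calls among related genes became 7 with that term, 2 without the trend and 2 to 5 on leaving out a mouse.

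Directions over the alternatives were followed for the carriers past the threshold and for the apical and basolateral ones, not for the rest. Among those followed, they turned only for carriers that did not pass. The log2 fold change of Slc6a6 was -0.0365 under quantile normalization, -0.0155 with edgeR, -0.0130 with DESeq2, -0.0753 with the term, -0.1752 in codes 53 to 66, and -0.0924 to 0.1397 on leaving out a mouse. That of Slc7a1 was 0.0093 under quantile normalization, 0.1414 in codes 53 to 66 and -0.0950 to 0.0495 on leaving out a mouse. Slc7a6 was at -0.0109 in codes 53 to 66 and -0.1292 to 0.2361 on leaving out a mouse, Slc7a2 at -0.0265 to 0.2824, and Slc38a2 at 0.0472 in codes 53 to 66. The causes were not tested. The labels give no pairing of mice and no replicate numbers, so no paired analysis was run. Replicate numbers here follow the order of the library codes within each genotype. Depth limits the carriers with under 35 normalized counts, whose intervals span both directions for all but Slc38a1.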

Other observations

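Slc7a12, a relative of Slc7a13 that is higher in female kidneys, fell outside the filter, with 7.30, 8.89, 3.40, 9.65 and 11.7 normalized counts in +/+ mice and 25.6, 22.3, 1.05, 4.94 and 22.4 in KI/+ mice. The KI/+ replicates 1, 2 and 5 were above all +/+ mice and replicates 3 and 4 were not above the highest of them. Of the 8 tested genes known for a sex bias in kidney, Cyp4a14 and Cyp2e1 were higher in KI/+ mice. Their log2 fold changes were 3.23 and 0.55. The list was not split by the direction of the bias, so this count gives no shift toward either sex. Prlr, Cyp4a12a, Cyp4b1, Cyp2j13, Slc22a30 and Cyp7b1 did not pass with limma. Cyp4a12a ran from 544 to 7232 within the +/+ mice and from 1850 to 8066 within the KI/+ mice. Prlr, with means of 170 and 322, passed with edgeR (adjusted p = 0.0418) but not with DESeq2 (adjusted p = 0.0871). Slc22a29, of the same list but outside the filter, was at 9.07 to 21.3 in +/+ and 0 to 6.50 in KI/+ mice. Slc38a4, the other of the 40 transporters outside the filter, was between 3.22 and 10.7 in +/+ mice and between 0 and 11.1 in KI/+ mice.

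A further pair of genes of the related lists were apart between the genotypes and did not pass. Xpnpep2, a brush border peptidase that cuts before proline, was at 27.6 to 37.5 in +/+ and 11.9 to 23.4 in KI/+ mice (limma adjusted p = 0.0612), and Mfsd12, a lysosomal carrier of cysteine, at 47.5 to 59.8 and 28.8 to 43.8 (limma adjusted p = 0.0698).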
